A study of Mus musculus with 15 samples.

Results

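The immediate-early transcription factors examined here were Egr1, Egr2, Egr3, Fos, Fosb, Jun, Junb, Jund, Nr4a1 and Ier2, taken by gene name from the deposited tables whatever their values, 10 of 53380 features. They were measured in cells of a mouse T-ALL, a leukemia of immature T cells, derived from tumors of EμSRα-tTA/tet-O-MYC mice of the FVB/N strain. In that model the lymphoid EμSRα promoter drives the tetracycline transactivator, which keeps a human MYC transgene on until doxycycline is added. PolyA RNA was sequenced from 12 libraries of cells with MYC off, 3 each at 2, 4, 8 and 24 h of doxycycline, and from 3 libraries with MYC on, the mock-treated cells of 0 h. All groups carry both transgenes, and no mock-treated library of a later time is among the groups, so loss of MYC, doxycycline itself and time in culture cannot be told apart. Whether libraries of 1 time came from separate cultures is not known from the labels, and the p-values therefore reflect the spread among these libraries, which may be technical.

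Immediate-early genes are transcribed within minutes of a stimulus from factors already present in the cell, with no need for new protein, and many of their mRNAs are short-lived. In T cells the T cell receptor and the RAS, ERK and calcium pathways are known to switch them on, through serum response factor and its ternary complex partners on CArG boxes and through CREB on cyclic AMP response elements. The EGR proteins are zinc finger factors, the FOS proteins pair with JUN proteins to form the dimer AP-1, Nr4a1 encodes the orphan nuclear receptor Nur77, and Ier2 encodes a small nuclear protein.

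Promoter windows of these genes were read from RefSeq (GRCm38.p6, 250 bases before to 50 after each start) for the sites such inputs use. These windows are shown because they belong to genes that were higher late (Jun, and Egr2 in its few counts), fell early (Junb), moved both ways (Nr4a1) or passed no test (Fos). They lie at chr10:67537620-67537919 (Egr2, plus strand, 1 of 5 windows listed, of which 4 hold a CArG box), chr4:95052173-95052472 (Jun, minus strand), chr8:84978699-84978998 (Junb, minus strand), chr15:101266596-101266895 (Nr4a1, plus strand) and chr12:85473640-85473939 (Fos, plus strand). Of the 4 Egr2 windows with a CArG box, those that overlap share the same box. Capitals mark a CArG box, the core TGACG of the cyclic AMP response element on either strand, or the letters TATAAA of the TATA box.
Egr2: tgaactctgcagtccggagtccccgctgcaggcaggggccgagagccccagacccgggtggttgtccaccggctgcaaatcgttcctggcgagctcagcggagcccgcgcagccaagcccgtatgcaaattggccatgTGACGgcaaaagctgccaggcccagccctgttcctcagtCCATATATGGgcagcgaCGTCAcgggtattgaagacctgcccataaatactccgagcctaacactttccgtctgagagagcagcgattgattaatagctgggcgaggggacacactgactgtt
Jun: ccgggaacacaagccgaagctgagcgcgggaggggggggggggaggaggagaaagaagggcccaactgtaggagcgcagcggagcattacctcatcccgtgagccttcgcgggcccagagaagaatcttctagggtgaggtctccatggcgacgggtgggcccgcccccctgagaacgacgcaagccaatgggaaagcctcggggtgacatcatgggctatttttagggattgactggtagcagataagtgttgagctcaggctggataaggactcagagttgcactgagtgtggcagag
Junb: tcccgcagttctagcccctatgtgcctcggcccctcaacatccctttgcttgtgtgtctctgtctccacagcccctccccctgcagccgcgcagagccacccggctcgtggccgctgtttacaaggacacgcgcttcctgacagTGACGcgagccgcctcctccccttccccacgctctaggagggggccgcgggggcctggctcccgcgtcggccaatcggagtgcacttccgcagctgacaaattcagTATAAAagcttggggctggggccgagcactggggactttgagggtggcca
Nr4a1: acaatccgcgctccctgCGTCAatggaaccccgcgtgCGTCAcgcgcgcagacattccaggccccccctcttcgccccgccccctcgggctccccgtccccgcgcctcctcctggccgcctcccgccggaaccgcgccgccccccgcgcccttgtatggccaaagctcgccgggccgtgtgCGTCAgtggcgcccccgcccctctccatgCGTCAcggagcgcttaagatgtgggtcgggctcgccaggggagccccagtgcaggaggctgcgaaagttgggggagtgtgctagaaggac
Fos: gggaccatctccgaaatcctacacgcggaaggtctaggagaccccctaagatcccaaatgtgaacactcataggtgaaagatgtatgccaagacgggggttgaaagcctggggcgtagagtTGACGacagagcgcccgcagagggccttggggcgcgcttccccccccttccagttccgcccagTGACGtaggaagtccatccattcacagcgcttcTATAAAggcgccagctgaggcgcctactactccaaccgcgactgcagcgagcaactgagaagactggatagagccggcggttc

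Over the 32851 windows of the table, 1.63% held a CArG box, 20.8% TGACG and 13.6% TATAAA. Of the genes printed, Egr2 held the CArG box, starting 73 bases before its start, with TGACG on both sides of it. Nr4a1 had 4 matches to TGACG, Fos had 2, the nearer starting at -66 with TATAAA at -33, and Junb had 1 match to each, with TATAAA starting at 1, the first base of its RefSeq start, and TGACG at -106. The Jun window held none of these 3, and it had 1 match to the GC box GGGCGG, which 35.7% of all windows held. Windows of 7 members were searched on both strands, those of Egr2, Fos, Fosb, Jun, Junb, Jund and Nr4a1. RefSeq as used here listed no window for Egr3 and Ier2. Egr1 was left out of the search by choice, so its promoter has no reading here. The Jund window ends at 70697788 on chromosome 8, upstream of the counted gene, which starts at 70698949. None of the windows held the full element TGACGTCA, which contains TGACG, the AP-1 site TGANTCA or the EGR site GCGTGGGCG, found in 1.79%, 7.81% and 0.612% of all windows. Of the 5 windows listed for Egr2, 1 held the E-box CACGTG (7.15% of all windows), which MYC and its partners bind. The related EGR site GCGGGGGCG, which can overlap the GC box, in 2.91% of all windows, was found in Nr4a1 and Fosb. A match is a description of letters and not of a bound site. Only exact letters inside a window were counted, so the lack of a match does not mean the lack of a site. The Jun window, for example, holds tgacatca, which differs from TGACGTCA by 1 base, and sites farther from the start were not searched.

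The deposited libraries held 25852711 to 27102318 counts, so that a count of 0 allows a level of up to 0.111 to 0.116 CPM, for counting error only. CPM are counts scaled to a common library size, on library totals for this limit and on TMM-scaled totals for every other value. The human MYC transgene averaged 24.8 ± 1.98 CPM at 2 h and 3.29 ± 0.314 CPM at 24 h, against 2024 ± 52.3 CPM at 0 h (SD, n = 3 each), and so followed the labels. The 12 T lineage markers summed to 9395 to 9924 CPM at 24 h and 5516 to 5594 CPM at 0 h, and Cd3e, a chain of the T cell receptor complex, ranged from 279.5 to 327 CPM at 24 h and from 241 to 257 CPM at 0 h. Replicate 3 of 24 h stood apart from its group: over genes, its counts differed from those of replicates 1 and 2 by 77.7 and 85.4 times the sampling noise (chi-square over its degrees of freedom), against 2.81 to 16.5 for all other pairs of replicates. It also had the highest Egr1, Nr4a1 and Jund of that group, and values of 24 h are given below with and without it where it matters. Markers of B cells, neutrophils and red cells summed to at most 0.368 CPM in any library.

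Levels were compared between genes per length, as TPM, the authors' values scaled for gene length and library size. At 0 h, in MYC on cells, Jund (71.2 ± 2.87 TPM) and Junb (53.3 ± 2.03 TPM) stood far above the rest, followed by Ier2 (18.8 ± 1.57), Nr4a1 (7.95 ± 1.15) and Jun (1.07 ± 0.301 TPM, SD, n = 3). Egr1 (0.461 TPM), Fos (0.351) and Fosb (0.248) came next with overlapping libraries, and Egr2 (0.0507) and Egr3 (0.0158), which also overlapped, were at the floor. The leukemia cells of 0 h held little mRNA of Egr1 and of the FOS genes. At 24 h the order was the same for Jund (198 ± 40.8), Junb (66.7 ± 3.86), Ier2 (31.7 ± 1.88) and Nr4a1 (14.9 ± 6.28 TPM). Egr1 (9.61 ± 3.80 TPM) then overlapped Nr4a1 and stood above Jun (5.82 ± 1.19 TPM), with which its libraries did not overlap. Summed Fos and Fosb were 0.795 ± 0.200 TPM at 24 h and 0.599 ± 0.243 TPM at 0 h. The 3 JUN genes summed to 271 ± 44.9 TPM at 24 h (244.7 to 322.8) and 126 ± 2.05 TPM at 0 h. TPM was not scaled by TMM, so a part of a difference between times can come from scaling. On TMM-scaled totals Junb averaged 45.9 CPM at 24 h and 46.7 CPM at 0 h, Fosb 0.436 and 0.593 CPM, and Jund 98.1 and 45.3 CPM.

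**Figure D1:**
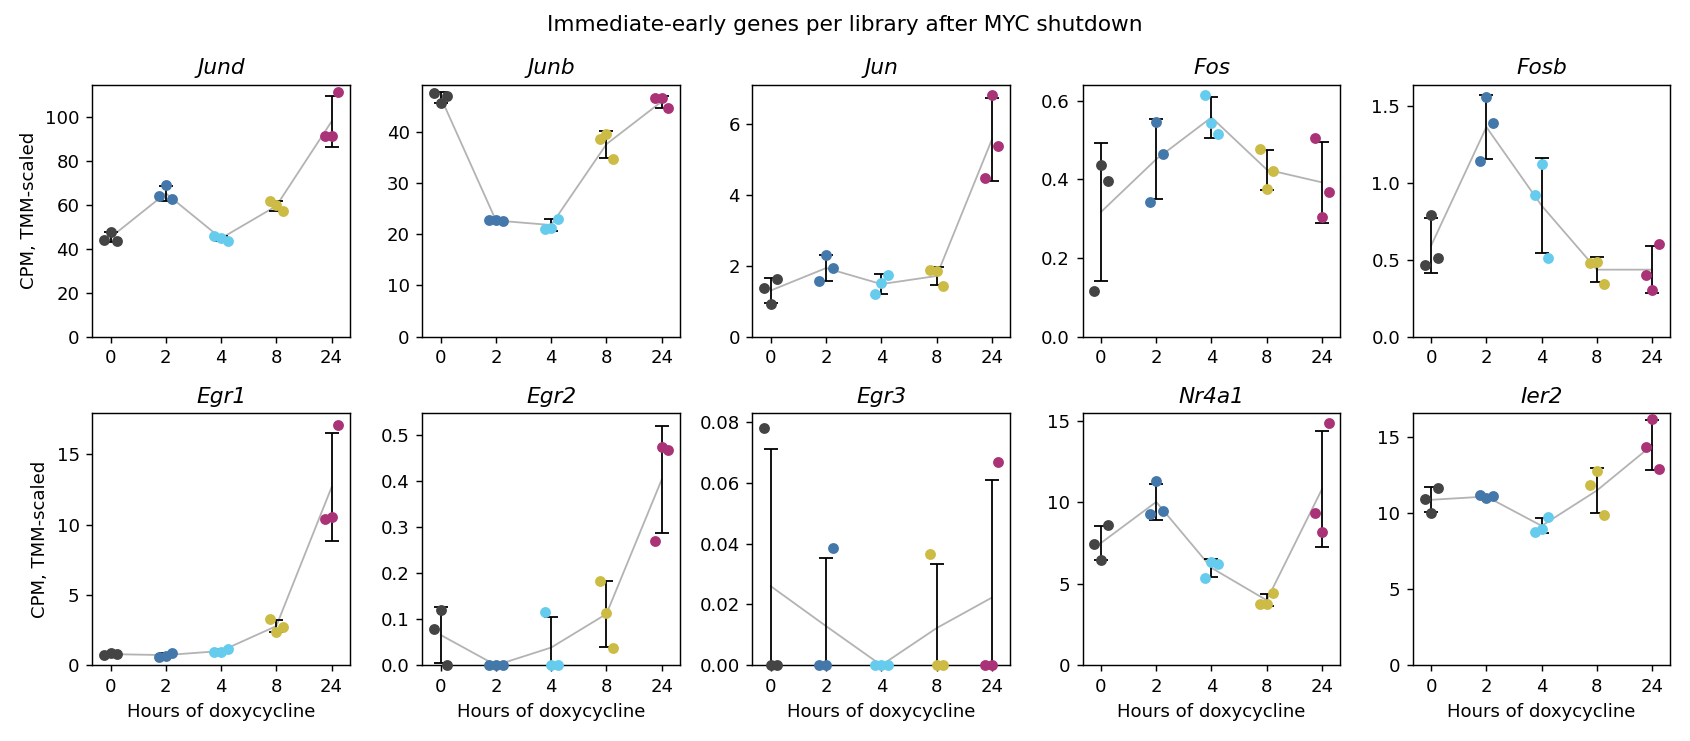
Level of each gene (vertical axis, CPM on TMM-scaled library totals, each panel with its own scale from 0) against hours of doxycycline (horizontal axis). Points are libraries, bars the mean ± SD of 3 libraries, and the grey line joins the means; Egr1 and Jun are highest at 24 h, Junb is lowest at 2 and 4 h, and Nr4a1 is lowest at 8 h.

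Each later time was then compared with 0 h, and each time with the one before it, in 1 edgeR quasi-likelihood fit of all 15 libraries (Benjamini-Hochberg adjusted p under 0.01). Of the 10 genes, 8 passed the low-count filter and were tested in 7 contrasts, and Egr2 and Egr3 did not pass it. At 2 h 1 tested member was higher (Jund) and 1 lower (Junb), where 6.6% of the 14485 tested genes were called higher and 8.59% lower. At 4 h none was higher (1 at an unadjusted p under 0.05, none by DESeq2) and 1 was lower (Junb), against 18.1% and 19.9% of all tested genes. At 8 h 4 of the 8 were called, 2 higher (Egr1, Jund) and 2 lower (Junb, Nr4a1), where 50.4% of all tested genes were called, 25.3% higher and 25.1% lower. At 24 h 4 were higher (Egr1, Jun, Jund, Ier2) and none lower (5 and 0 at an unadjusted p under 0.05, 4 and 0 by DESeq2), against 30.7% and 28.1% of all tested genes. The share of members called at 8 h was that of all genes, and is no result about the members. In either direction, 38.1% of all tested genes were called at 4 h and 58.8% at 24 h. The number of members called at those times is no result about them either. The median log2 fold change over all tested genes was 0.07 at 24 h against 0 h, and 52.1% of the calls there were higher, or 69.0% with library totals.

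The steps between neighbouring times were tested in the same way. At 4 h against 2 h Jund and Nr4a1 fell and none of the 8 rose (0 also at an unadjusted p under 0.05 and by DESeq2), where 13% of all tested genes were called lower and 7.72% higher. At 8 h against 4 h Egr1, Junb and Jund rose, 3 of the 8 where 5.73% of all tested genes rose, and none fell (2 at an unadjusted p under 0.05, 0 by DESeq2) where 6.97% fell. At 24 h against 8 h Egr1, Jun, Junb, Jund and Nr4a1 rose, 5 of the 8, and none fell at either threshold or by DESeq2, where 20.8% of all tested genes were called higher and 17.3% lower. These steps share libraries with each other and with the contrasts to 0 h.

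**Figure D2:**
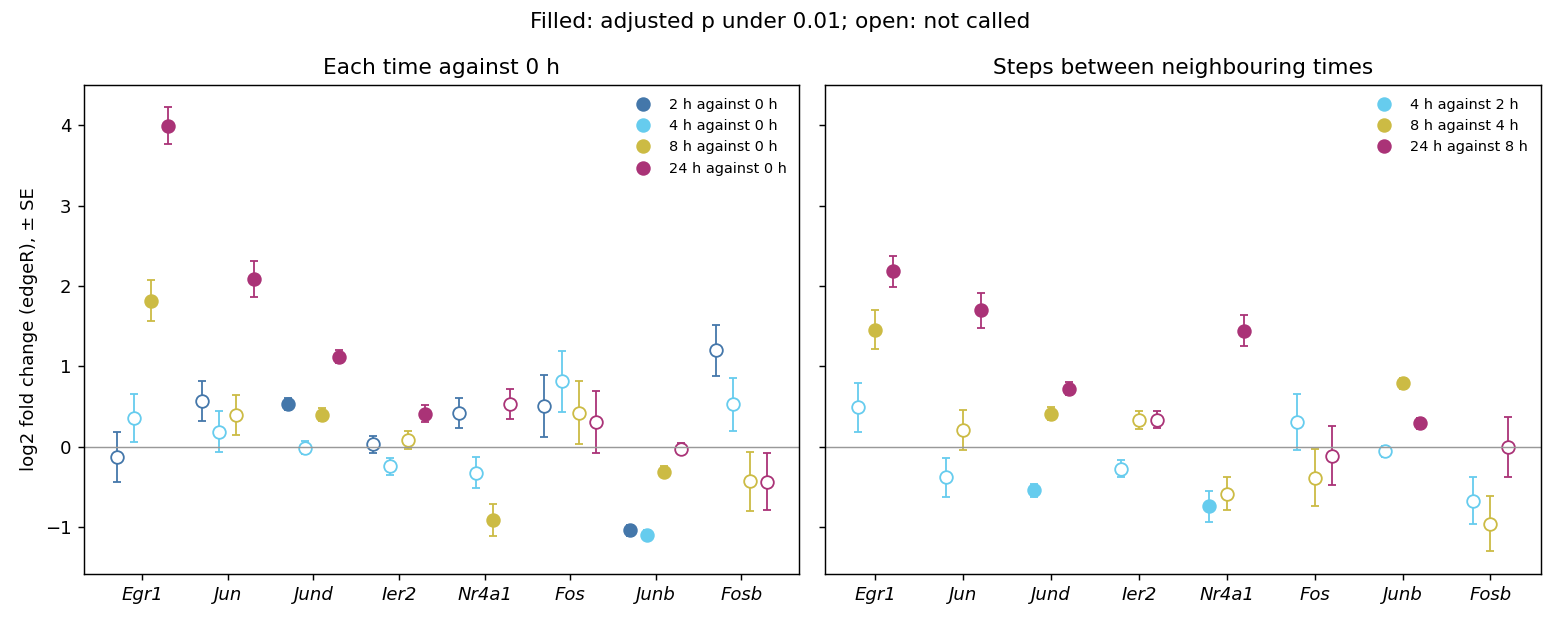
Log2 fold change with its standard error from the edgeR fit (vertical axis) for the 8 tested genes (horizontal axis), each time against 0 h (left) and each step between neighbouring times (right). Filled points passed an adjusted p of 0.01 and open points did not; Egr1 reaches 3.99 at 24 h against 0 h, and Junb is at -1.04 and -1.10 at 2 and 4 h.

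Egr1 (GRCm38 chromosome 18, 34859823 to 34864984, plus strand, 2 exon blocks), the EGR factor that growth factor and antigen receptor signals induce most broadly, had the largest change of the 8 tested genes. Its counts were 19, 21 and 20 (0 h), 16, 17 and 23 (2 h), 24, 25 and 29 (4 h), 89, 63 and 71 (8 h), and 308, 311 and 511 (24 h). The 2 h libraries thus overlapped those of 0 h, while each library of 8 h lay above every earlier one and each of 24 h above every one of 8 h. In CPM on TMM-scaled totals Egr1 averaged 2.78 ± 0.453 at 8 h and 0.789 ± 0.0469 at 0 h, a log2 fold change of 1.81 ± 0.256 (SE, adjusted p = 1.67e-05). At 24 h the mean was 12.7 ± 3.83 CPM, 16.0 times that of 0 h, with a log2 fold change of 3.99 ± 0.230 (adjusted p = 4.39e-10). Without replicate 3 of 24 h it was 3.72 (adjusted p = 5.42e-14). Both later steps passed the test, at 1.46 ± 0.245 for 8 h against 4 h (adjusted p = 0.000514) and 2.18 ± 0.192 for 24 h against 8 h (adjusted p = 4.26e-07), so that Egr1 rose at 8 h and again by 24 h. At 4 h against 0 h the log2 fold change was 0.36 ± 0.297 (adjusted p = 0.333).

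Egr2 (chromosome 10, 67535475 to 67542188), which with Egr3 (chromosome 14, 70077203 to 70082614) restrains T cell activation, was counted too rarely for the main test. It had 2, 3 and 0 counts (0 h), 0 in each 2 h library, 3, 0 and 0 (4 h), 5, 3 and 1 (8 h), and 8, 14 and 14 counts (24 h). Every 24 h library therefore lay above all the others. Its summed counts of 36 at 24 h and 5 at 0 h gave a depth-scaled ratio of 7.42 with a 95% exact counting interval of 2.90 to 24.2, which covers counting error only. With no low-count filter edgeR gave Egr2 a log2 fold change of 2.49 (adjusted p = 0.00734), and DESeq2 gave 2.57 (adjusted p = 0.03), on the other side of the threshold. Over the 3 libraries of a time Egr3 had 2 (0 h), 1 (2 h), 0 (4 h), 1 (8 h) and 2 counts (24 h), so that a difference was not detectable at this depth.

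Jun (chromosome 4, 95049034 to 95052222, minus strand, a single exon), the founding AP-1 subunit and a target of JNK, kept a low level until the last time point. Its counts were 35, 23 and 41 (0 h), 41, 59 and 50 (2 h), 31, 39 and 44 (4 h), 51, 49 and 37 (8 h), and 133, 201 and 161 (24 h). The libraries of 0 to 8 h overlapped and those of 24 h stood above all of them. Jun averaged 5.55 ± 1.17 CPM at 24 h and 1.30 ± 0.359 CPM at 0 h, with a log2 fold change of 2.09 ± 0.225 (adjusted p = 6.76e-07) and of 1.69 ± 0.216 against 8 h (adjusted p = 1.61e-05). Its value at 2 h against 0 h was 0.57 ± 0.249 (adjusted p = 0.117). The noncoding Junos shares 232 of the 3189 exonic bases of Jun, on the other strand. It had 8 to 15 counts per library at 24 h and at most 6 in any earlier library. The part of reads of 1 of the pair counted for the other was not tested.

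Junb (chromosome 8, 84974484 to 84978718, minus strand), a JUN protein known to oppose Jun in proliferation and to take part in T helper differentiation, was the only one of the 8 tested members called lower at 2 and 4 h. Its levels in CPM were 47.6, 45.6 and 47.0 (0 h), 22.7, 22.8 and 22.5 (2 h), 21.02, 21.3 and 23.1 (4 h), 38.5, 39.6 and 34.6 (8 h), and 46.5, 46.6 and 44.6 (24 h). Neither 2 h nor 4 h had a library near those of 0 h, and the 24 h libraries overlapped them again. Junb fell to 48.5% ± 0.320 of its 0 h mean at 2 h (log2 fold change -1.04 ± 0.0676, adjusted p = 6.43e-08) and to 46.6% ± 2.39 at 4 h (-1.10 ± 0.0678, adjusted p = 2.55e-09). It rose by 0.79 ± 0.0678 at 8 h against 4 h (adjusted p = 1.08e-06) and by 0.29 ± 0.0659 at 24 h against 8 h (adjusted p = 0.00204). The last call was lost with no low-count filter (adjusted p = 0.0295), in a fit of only the 24 and 8 h libraries (adjusted p = 0.0647) and without replicate 3 of 8 h (0.25, adjusted p = 0.0118). At 8 h it was still lower than at 0 h (-0.31 ± 0.0661, adjusted p = 0.000715), a call that library totals (-0.20, adjusted p = 0.016) and upper-quartile factors (-0.15, adjusted p = 0.0513) did not give. The value at 24 h against 0 h was -0.03 ± 0.0656 (adjusted p = 0.738). There the direction depended on scaling, as library totals gave 0.25 (adjusted p = 0.00378) and shifted the median of all tested genes by 0.27, while upper-quartile factors gave 0.12 with a shift of 0.14. The medians over all genes were then 0.35 and 0.22, above the values of Junb.

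Prdx2, a peroxiredoxin gene that overlaps Junb on the other strand by 173 of its 2301 counted bases, averaged 255 ± 5.54 CPM at 2 h, 311 ± 35.8 CPM at 4 h and 267 ± 17.8 CPM at 0 h (SD, n = 3). No source used here gives the strand setting of featureCounts, and the share of Prdx2 reads counted for Junb was not tested.

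Jund (chromosome 8, 70698949 to 70700616, plus strand, a single exon), the JUN gene most cells express without stimulation, had a first peak at 2 h. The libraries held 44.3, 47.9 and 43.7 CPM (0 h), 64.2, 69.3 and 62.8 (2 h), 46.1, 44.8 and 43.6 (4 h), 61.7, 59.9 and 57.1 (8 h), and 91.7, 91.4 and 111 CPM (24 h). The libraries of 4 h overlapped those of 0 h, and those of 2, 8 and 24 h lay above both. Jund rose at 2 h against 0 h (0.53 ± 0.0796, adjusted p = 0.000163), fell at 4 h against 2 h (-0.54 ± 0.0796, adjusted p = 8.75e-05), and rose at 8 h against 4 h (0.41 ± 0.0796, adjusted p = 0.00161). It rose once more at 24 h against 8 h (0.72 ± 0.0787, adjusted p = 3.8e-06), to 217% ± 25.3 of its 0 h mean (1.12 ± 0.0797, adjusted p = 5.56e-09). Without replicate 3 of 24 h the last value was 1.02 (adjusted p = 2.98e-12). Each of these calls, and that at 8 h against 0 h (0.40, adjusted p = 0.000481), held under every alternative.

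The antisense gene Gm11175 lies wholly within the single exon of Jund, on the other strand, and shares 877 bases with it. Its counts were 51.7% to 61.2% of those of Jund in every library, where the shared bases are 52.6% of the Jund exon. It averaged 38.5 ± 2.75 CPM at 2 h and 53.6 ± 4.79 CPM at 24 h, against 25.1 ± 0.716 CPM at 0 h. Without the strand of the reads the pair cannot be told apart, and the values of Jund are uncertain to that degree.

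Within the JUN family Junb made up a smaller share in every library after 0 h than in any of 0 h. Junb made up 43.4%, 40.6% and 43.3% of the summed TPM of Jun, Junb and Jund in the 0 h libraries. The mean share was 42.5% ± 1.62 (0 h), 19.9% ± 0.750 (2 h), 25.7% ± 1.43 (4 h), 31.0% ± 0.932 (8 h) and 24.9% ± 2.47 (24 h, SD, n = 3 each). No library of a later time overlapped those of 0 h, and an exact two-sided permutation test gave p = 0.1 for each time, the smallest that 3 against 3 libraries allow. The ratio of Junb to Jund was 0.75 ± 0.0520 (0 h), 0.252 ± 0.0114 (2 h), 0.353 ± 0.0278 (4 h), 0.457 ± 0.0206 (8 h) and 0.343 ± 0.0455 (24 h). These ratios are taken within a library and do not depend on how libraries were scaled. They can still depend on reads of the overlapping Prdx2 and Gm11175 counted for Junb or Jund. The size of that part was not tested, so the shares and ratios are uncertain to that degree. The share of Jun was 2.17% ± 0.512 at 24 h and 0.855% ± 0.249 at 0 h.

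**Figure D3:**
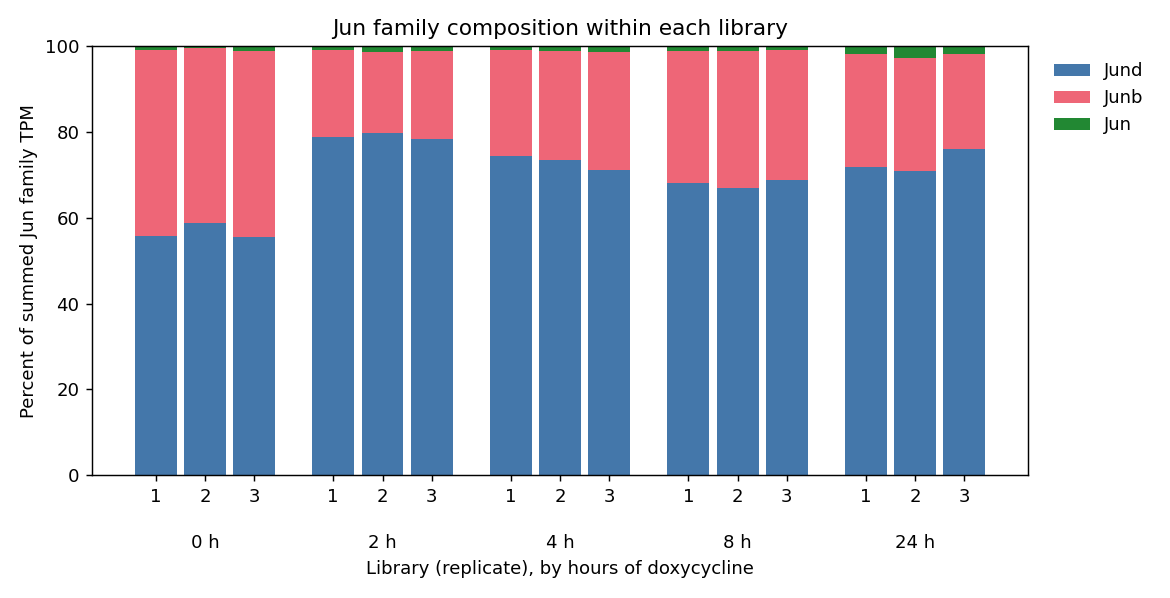
Share of Jund, Junb and Jun (stacked bars, percent of their summed TPM, vertical axis) in each of the 15 libraries, ordered by hours of doxycycline (horizontal axis). The Junb share is 19.9% on average at 2 h and 42.5% at 0 h, and Jun stays at the top as a thin band.

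Fos (chromosome 12, 85473890 to 85477273) and Fosb (chromosome 7, 19302696 to 19310051), the AP-1 partners that depend on a JUN protein to bind DNA, stayed rare at every time. Fos had 3, 11 and 10 counts (0 h), 9, 14 and 12 (2 h), 16, 14 and 13 (4 h), 13, 10 and 11 (8 h), and 15, 9 and 11 (24 h). edgeR called it in none of the 7 contrasts (1 at an unadjusted p under 0.05, and none by DESeq2), with its largest log2 fold change of 0.81 ± 0.377 at 4 h against 0 h (adjusted p = 0.0854), and leaving out replicate 1 of 0 h lowered that to 0.42. Summed counts of 43 at 4 h and 24 at 0 h gave a ratio of 1.82 with a counting interval of 1.08 to 3.14. Fosb had 12, 20 and 13 counts (0 h), 30, 40 and 36 (2 h), 24, 29 and 13 (4 h), 13, 13 and 9 (8 h), and 12, 9 and 18 (24 h). Each 2 h library lay above every other library. The log2 fold change of Fosb at 2 h against 0 h was 1.1975 ± 0.314 (adjusted p = 0.0108), just outside the threshold, with 106 counts at 2 h and 45 at 0 h in all, a ratio of 2.38 (counting interval 1.66 to 3.45). Library totals (1.24, adjusted p = 0.00988), upper-quartile factors (1.23, adjusted p = 0.00883), no low-count filter (adjusted p = 0.00707) and a fit of only the 2 and 0 h libraries (adjusted p = 0.000744) placed it inside, as did leaving out replicate 2 or 3 of 4 h or of 24 h (adjusted p from 0.00297 to 0.00986). Of 22 alternatives, 13 left it uncalled. Among these were RLE (1.15, adjusted p = 0.0131), a replicate block (1.20, adjusted p = 0.0148) and leaving out replicate 1 of 0 h (1.05, adjusted p = 0.0543).

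Nr4a1 (chromosome 15, 101254269 to 101274795, plus strand), whose product Nur77 marks antigen receptor signals in thymocytes and can trigger their death, had its lowest level at 8 h. It had 190, 163 and 217 counts (0 h), 244, 289 and 245 (2 h), 139, 164 and 157 (4 h), 103, 100 and 115 (8 h), and 278, 242 and 445 (24 h). In CPM each 2 h library lay above and each 4 and 8 h library below all those of 0 h, and the 24 h libraries overlapped them. It fell to 53.1% ± 4.98 of the 0 h mean at 8 h (log2 fold change -0.91 ± 0.200, adjusted p = 0.000977) and rose at 24 h against 8 h by 1.44 ± 0.194 (adjusted p = 2.74e-05). Without replicate 3 of 24 h that rise was 1.14 (adjusted p = 8.44e-07). The value at 2 h against 0 h was 0.42 ± 0.186 (adjusted p = 0.122). Nr4a1 fell at 4 h against 2 h (-0.75 ± 0.189, adjusted p = 0.00684), a call lost with upper-quartile factors (-0.68, adjusted p = 0.0116) or without replicate 1 of 0 h, 1 or 2 of 2 h, or any of 4 h (adjusted p from 0.0103 to 0.0231). At 24 h against 0 h the value was 0.53 ± 0.184 (adjusted p = 0.0188), and 0.23 without replicate 3 of 24 h (adjusted p = 0.119), which had 14.9 CPM where replicates 1 and 2 had 9.35 and 8.18 CPM. Library totals (0.81, adjusted p = 0.00126), upper-quartile factors (0.67, adjusted p = 0.00453), no low-count filter (0.48, adjusted p = 0.0044) and leaving out replicate 2 of 24 h (0.65, adjusted p = 0.00367) placed it inside the threshold.

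Ier2 (chromosome 8, 84661331 to 84662852, minus strand, a single exon), a nuclear protein gene that serum and growth factors induce, passed the test in 1 of the 7 contrasts. Its libraries held 11.0, 10.02 and 11.7 CPM (0 h), 11.2, 11.0 and 11.1 (2 h), 8.80, 8.98 and 9.74 (4 h), 11.8, 12.8 and 9.90 (8 h), and 14.4, 16.2 and 12.9 CPM (24 h). Only the libraries of 24 h lay above all those of 0 h, and those of 4 h lay below them. The log2 fold change at 24 h against 0 h was 0.41 ± 0.107 (adjusted p = 0.00303). The call was lost with no low-count filter (0.37, adjusted p = 0.0105), in a fit of only the 24 and 0 h libraries (0.38, adjusted p = 0.0305), and without replicate 2 of 0 h (0.33, adjusted p = 0.0314) or replicate 1 (0.38, adjusted p = 0.0142) or 2 of 24 h (0.28, adjusted p = 0.0374). The value at 4 h against 0 h was -0.25 ± 0.111 (adjusted p = 0.0743).

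The genes whose profile over the 15 libraries was most like that of each member were listed by Pearson's r of log2(CPM + 2), as a description, since the points share time points and library 3 of 24 h. Egr1 was nearest to Itgal, the integrin chain of LFA-1 (r = 0.997), Myo1f (0.994) and Ephb6 (0.993). Itgal averaged 142 CPM at 24 h and 25.3 CPM at 0 h. Jund was nearest to P4ha2 (0.976), to Etv5, an ETS factor that ERK signaling induces (0.976), and to Ptk2b (0.967). Etv5 averaged 1.22 (0 h), 8.46 (2 h), 2.84 (4 h), 6.21 (8 h) and 26.3 CPM (24 h). Jun was nearest to Acvrl1 (0.963), Dusp4, a nuclear phosphatase of MAP kinases (0.963), and Gsn (0.959). Dusp4 passed the low-count filter only through its 24 h libraries. It averaged 0.706 CPM at 24 h and 0.0657 CPM at 0 h, under the floor of 3 counts per library. Junb was nearest to Rassf1 (0.962), Cldn4 (0.932) and Nrros (0.927), and Nr4a1 to Lrp5 (0.952), Agrn (0.95) and Rps6ka1 (0.938). Fosb was nearest to Mob1b (0.942), Scd1 (0.920) and Golph3 (0.912), and Ier2 to Xpa (0.909), Acp5 (0.893) and P4ha1 (0.888). Fos had no close neighbour, with 0.737 for Nipal2, 0.733 for Thsd7b and 0.729 for C9orf72. Among the members themselves the highest r was 0.894, between Egr1 and Jun.

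A list of 38 other immediate-early genes, of which 31 were tested, had calls in both directions at 2 to 8 h and more calls higher than lower at 24 h. At 2 h 5 were called higher and 6 lower, beside 6.6% and 8.59% of all tested genes. Dusp2, which inactivates ERK in the nucleus, averaged 1.74 CPM at 2 h against 15.3 CPM at 0 h (log2 fold change -3.14 ± 0.128, adjusted p = 4.76e-10). Sik1, a CREB-induced kinase that restrains CREB coactivators, fell with it (-2.01 ± 0.244, adjusted p = 2.25e-05), as did Mafk (-1.53) and Zfp36l2 (-0.98). The genes called higher at 2 h were Dusp1 (0.91), the antiproliferative Btg1 (0.90) and Tob1 (0.48), Klf6 (0.77) and Nfkbiz (0.76). Calls at 4 h were 9 higher and 8 lower, beside 18.1% and 19.9% of all tested genes. Those at 8 h were 10 higher and 7 lower, beside 25.3% and 25.1%. At 4 and 8 h Sik1 was at -3.70 and -3.08 and Dusp2 at -3.56 and -3.21 against 0 h.

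At 24 h 15 of the 31 were called higher and 7 lower, with a median log2 fold change of 0.67 against 0.07 for all tested genes, of which 30.7% were higher and 28.1% lower. Maff, a small MAF protein that heterodimerizes with other bZIP factors, averaged 3.92 CPM at 24 h and 0.511 CPM at 0 h (2.93 ± 0.316, adjusted p = 6.72e-07). Arc, an early gene best known in neurons, averaged 14.4 CPM at 24 h and 2.20 CPM at 0 h (2.70 ± 0.202, adjusted p = 9.42e-09), and Dusp1, a nuclear MAP kinase phosphatase, 24.3 CPM at 24 h and 5.09 CPM at 0 h (2.26 ± 0.101, adjusted p = 2.19e-11). Sik1 (-2.19), Dusp2 (-1.90), Mafk (-1.22) and Trib1 (-1.16) were lower at 24 h than at 0 h. Without replicate 3 of 24 h, a choice made after seeing the data, 14 were higher and 7 lower.

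**Figure D4:**
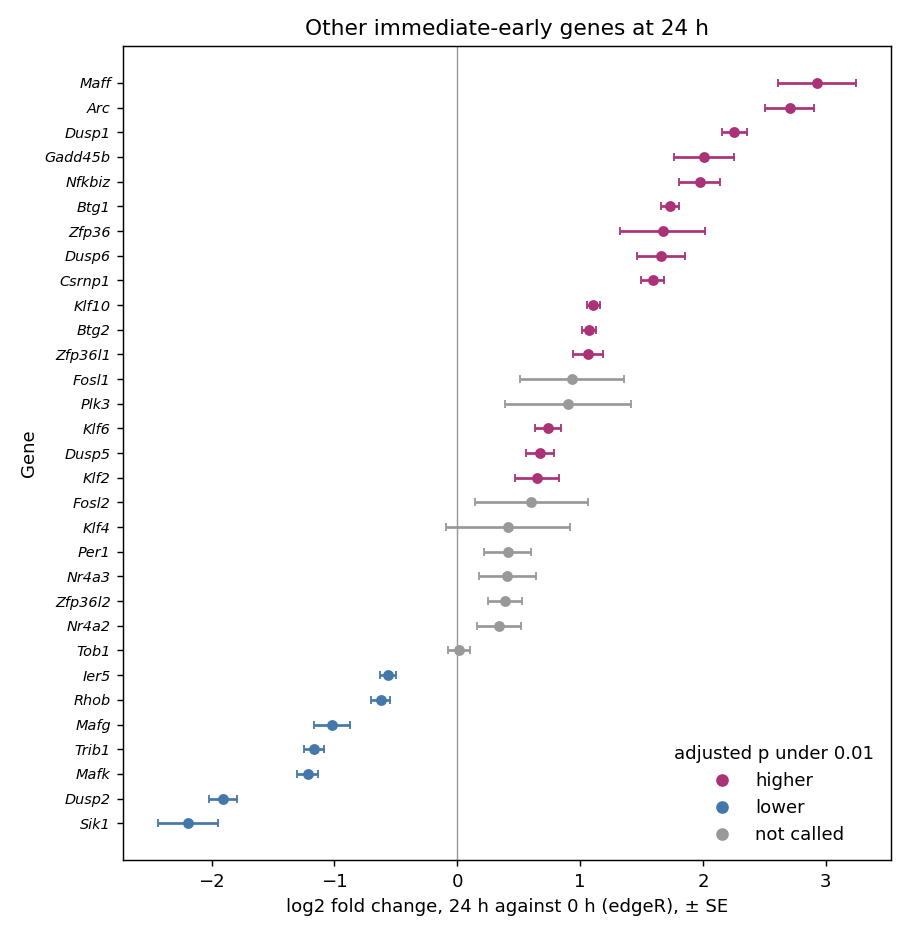
Log2 fold change at 24 h against 0 h with its standard error from the edgeR fit (horizontal axis) for the 31 tested genes of the list of other immediate-early genes (vertical axis, ordered by value). Colors give the call at an adjusted p of 0.01: 15 genes are higher, from Klf2 to Maff, and 7 are lower, from Ier5 down to Sik1.

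The other AP-1 and bZIP partners were mixed at every time. Of 24 genes 19 were tested, and 8 were called higher and 6 lower at 24 h, beside 30.7% and 28.1% of all tested genes, with a median of 0.01. Without genes under the floor of 3 counts per library in either group, 7 were higher and 6 lower, with a median of -0.03. Batf, a bZIP factor that pairs with JUN proteins in T cells, averaged 1.45 CPM at 24 h and 0.382 CPM at 0 h (1.91 ± 0.374, adjusted p = 0.000307). Ddit3, the stress factor CHOP, averaged 20.98 CPM at 24 h and 9.15 CPM at 0 h (adjusted p = 7.93e-08), and Mafk fell by 1.22 on the log2 scale. With replicate 3 of 24 h left out, 8 were higher and 8 lower, with a median of -0.10. At 2 h 5 were higher and 4 lower, beside 6.6% and 8.59% of all tested genes. These calls were led by Mafk (-1.53), Mafg (-0.74), Ddit3 (0.60) and Atf6 (0.42).

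The upstream factors were described in the same way. Of serum response factor and its partners, 17 were tested and 1 was called higher at each of 2, 4 and 8 h against 0 h, with 1, 3 and 4 lower. At those times 6.6%, 18.1% and 25.3% of all tested genes were higher and 8.59%, 19.9% and 25.1% lower. At 24 h 9 were higher and none lower (0 also at an unadjusted p under 0.05 and by DESeq2), with a median of 0.50, beside 30.7% higher and 28.1% lower of all tested genes. Among them were the ternary complex factors Elk3 (2.63 CPM at 24 h and 0.920 CPM at 0 h, 1.51 ± 0.330, adjusted p = 0.000773) and Elk4 (91.0 CPM at 24 h and 43.4 CPM at 0 h, 1.07 ± 0.140, adjusted p = 5.84e-06). The acetyltransferases Ep300 (0.79) and Crebbp (0.77) were also called. Leaving out replicate 3 of 24 h gave 6 higher and 2 lower, Srf (-0.39, adjusted p = 0.000803) and Crtc1 (-0.51, adjusted p = 0.000155), with a median of 0.26. The call of Crebbp was then lost (0.32, adjusted p = 0.025) and the value of Ep300 was 0.43 (adjusted p = 0.000227). Srf itself fell at 4 h against 0 h (23.4 CPM at 4 h and 35.7 CPM at 0 h, -0.60 ± 0.122, adjusted p = 0.000717) and rose at 24 h against 8 h (30.6 CPM at 24 h and 22.2 CPM at 8 h, 0.46 ± 0.122, adjusted p = 0.0054), and the call at 24 h against 8 h was lost without replicate 3 of 24 h (0.29, adjusted p = 0.0126).

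Among 27 tested RAS, ERK, JNK and p38 kinase pathway genes, 11 were higher and 6 lower at 24 h, with a median of 0.08, beside 30.7% and 28.1% of all tested genes, and 11 higher and 7 lower without replicate 3 of 24 h. Rasgrp1, which couples the T cell receptor to RAS, averaged 211 (0 h), 314 (2 h) and 495 CPM (24 h), and passed the test at both later times (0.57 ± 0.114, adjusted p = 0.00167, and 1.23 ± 0.115, adjusted p = 1.3e-07). The scaffold Ksr1 (1.46) and Map3k1 (1.22), a kinase above JNK, rose, and Hras fell at 2 h (-0.66) and 24 h (-0.96). At 8 h 5 were higher and 11 lower, beside 25.3% and 25.1% of all tested genes. The counts are of mRNA, and the activity of these kinases was not measured.

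Of 27 corepressors and target genes that EGR or AP-1 factors are known to act on in T cells, 17 were tested. Leaving out Cd69, which passed the low-count filter only through its 24 h libraries, 9 of 16 were higher at 24 h and none lower (0 of the whole list also at an unadjusted p under 0.05 and by DESeq2), with a median log2 fold change of 0.65, beside 30.7% higher and 28.1% lower of all tested genes. With Cd69 10 of 17 were higher, also without replicate 3 of 24 h. Cd5, a receptor whose level follows T cell receptor signals in thymocytes, averaged 83.2 ± 7.83 CPM at 24 h and 5.60 ± 0.650 CPM at 0 h (3.89 ± 0.109, adjusted p = 1.8e-13). Dgka, a diacylglycerol kinase that limits RAS activation, averaged 200 CPM at 24 h and 46.7 CPM at 0 h (2.10 ± 0.0928, adjusted p = 1.92e-11), and Tnf 3.08 CPM at 24 h and 0.551 CPM at 0 h (2.47 ± 0.330, adjusted p = 7e-06). Cd69 was counted at 0.762 CPM at 24 h and at 0.0395 CPM, under the floor of 3 counts per library, at 0 h. At 2 h 3 were called, all higher, namely Id2 (0.88), Id3 (0.57) and Tnfrsf9 (0.94), beside 6.6% higher and 8.59% lower of all tested genes. At 4 h against 0 h 4 were higher and 4 lower, beside 18.1% and 19.9%. At 8 h against 0 h 6 were higher and 1 lower, beside 25.3% and 25.1%. In the step from 4 to 8 h 4 were called higher, 0 lower and 13 not called, beside 5.73% higher and 6.97% lower of all tested genes. Cd5 and Dgka rose at 8 h against 4 h as Egr1 did, by 0.95 and 1.03, and again at 24 h against 8 h, by 2.58 and 0.79.

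Markers of other cells were read beside these results. The 6 macrophage and monocyte markers summed to 24.9 to 31.9 CPM at 24 h and 10.5 to 12.5 CPM at 0 h. The defining Lyz2 was at 0 in every library and Adgre1 had at most 3 counts. The integrin Itgam rose, at 20.6 CPM at 24 h and 2.58 CPM at 0 h. Csf1r, a macrophage receptor, went the other way, at 5.82 ± 1.30 CPM at 24 h and 8.15 ± 1.23 CPM at 0 h, with overlapping libraries. The 4 NK cell markers summed to 6.48 to 7.91 CPM at 24 h and 0.554 to 1.25 CPM at 0 h, with Ncr1 at 0 in every library and 6.85 CPM of Prf1, which killer T cells also express, at 24 h. Fibroblast markers summed to 2.42 to 4.08 CPM at 24 h and 1.31 to 1.66 CPM at 0 h with Col3a1 and Dcn at 0, and dendritic cell markers to at most 0.811 CPM. The part of these markers in the results of the members was not tested. In bulk RNA fewer cells with a transcript and less of it per cell cannot be told apart.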

How the data were processed

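PolyA RNA was sequenced from 15 libraries, grouped by the time in their labels. Each library's file lists 53380 features. The deposited counts, which the authors left raw, were tested, and the TPM that the authors computed was used to compare genes per length. FPKM was not used. Tools named by the submitters' processing notes are featureCounts, STAR 2.5.4b and cutadapt 1.16, with mm10 as build. No source used here states the strand setting. Names and positions came from GENCODE M21 (GRCm38), in which 53274 gene IDs matched and 105 did not.

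Counts were fitted with edgeR 4.0.16 in R 4.3.3 (filterByExpr on the 5 groups, 14485 genes, TMM, glmQLFit with 1 mean per time and no replicate block, 7 contrasts, Benjamini-Hochberg adjustment over all tested genes, call at 0.01), and DESeq2 1.42.0 served as an alternative. CPM are on TMM-scaled totals, and correlations used log2(CPM + 2). Motif matches and exact tests used Python 3.11.15 with scipy 1.17.1. The fit was tested on simulated counts. The 3 libraries of a time never agreed within sampling noise, so all were kept. The depth of 25852711 to 27102318 counts sets the precision, and counting intervals are exact at 95% and cover counting error only.

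Named genes are the 10 members, the MYC transgene, up to 4 called genes per list and contrast with the largest change, and any where 5 or fewer were called, and the 3 protein-coding genes nearest to each tested member; not every gene so covered is reported. Promoter sequences are those of RefSeq. The members, the lists and the tests were chosen with earlier results of these data known. Alternatives were RLE, library totals, upper-quartile factors, no filter, at least 10 counts in every library, an adjusted p under 0.05, a replicate block, a fit of only the times compared, DESeq2, TPM for levels, and leaving out each library. List counts without replicate 3 of 24 h, or without genes under the floor of 3 counts, were added after the data were seen. Surface staining, glycomics and tumor data of the study were not analysed here.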

Additional observations from a re-analysis of the deposited data

How the results depend on the processing

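Of 56 member and contrast values, 21 were called. None of the 21 changed direction under any alternative, 17 kept the call under every one, and 4 lost it under some, namely Junb at 8 h against 0 h, Ier2 at 24 h against 0 h, Nr4a1 at 4 h against 2 h and Junb at 24 h against 8 h. DESeq2 and RLE gave the same counts of members called. Without replicate 3 of 24 h Nr4a1 at 2 h against 0 h (0.42, adjusted p = 0.00664) and at 8 h against 4 h (-0.58, adjusted p = 0.00174) and Ier2 at 24 h against 8 h (0.41, adjusted p = 0.00228) were also called.

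The count called higher at 2 h against 0 h, 1 in the report, was 2 with library totals, upper-quartile factors, no filter or an adjusted p under 0.05, 3 in a fit of only the times compared, and 1 to 3 without single libraries. The count called lower at 8 h against 0 h, 2 in the report, was 1 with library totals or upper-quartile factors. At 4 h against 2 h the count called lower, 2 in the report, was 1 with upper-quartile factors and 1 to 2 without single libraries. At 8 h against 4 h the count called lower, 0 in the report (edgeR; 2 at an unadjusted p under 0.05), was 1 with no filter or in a fit of only the times compared and 0 to 1 without single libraries. The count called higher at 24 h against 0 h, 4 in the report, was 6 with library totals and 3 to 4 without single libraries, and at 24 h against 8 h, 5 in the report, 6 with library totals and 4 to 6. Nr4a1 at 24 h against 0 h was also called with upper-quartile factors, with no filter (as was Egr2) or at an adjusted p under 0.05. Ier2 there was not called with no filter or in a fit of only the times compared. Ier2 at 24 h against 8 h was also called at an adjusted p under 0.05, and Junb there was not called with no filter or in a fit of only the times compared.

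Directions that changed belong to values that passed no test in the report, the largest of them Fos at 24 h against 0 h (0.31). Ier2 at 2 h against 0 h was -0.0154 with RLE and -0.0166 with DESeq2 (log2 fold change). Jund at 4 h against 0 h was 0.0327 with library totals but 0.0872 for upper-quartile factors, Junb at 24 h against 0 h 0.25 and 0.12, and Junb at 4 h against 2 h 0.0061 for upper-quartile factors. At 24 h against 8 h Fos was 0.0505 and Fosb 0.165 with library totals. Without single libraries Ier2 ranged from -0.0238 to 0.0853 at 2 h and from -0.0442 to 0.133 at 8 h against 0 h, Jun from -0.0541 to 0.332 at 4 h, Fos from -0.0865 to 0.578 at 24 h against 0 h and from -0.325 to 0.0451 at 24 h against 8 h, and Fosb from -0.302 to 0.207 there. The cause was not tested.

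Replicate numbers did not pair the libraries, as deviations of same-numbered libraries of different times correlated from -0.60 to 0.54 (median 0.04) and 7 of 15 libraries correlated best with their own number. With a replicate block the counts of members called were the same, and Fosb at 24 h against 8 h was 0.0128 in place of -0.0017. Depth limits Egr2, Egr3, Fos and Fosb, which had at most 40 counts in any library.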

Other observations

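Factors that degrade or stabilise AU-rich mRNA, the class of transcript to which many immediate-early mRNAs belong, were called in both directions. Of 22 tested, 8 were called higher and 3 lower at 24 h against 0 h (median log2 fold change 0.12, beside 30.7% of all tested genes higher and 28.1% lower). At 2 h 3 were higher and 3 lower, beside 6.6% and 8.59% of all tested genes. Without replicate 3 of 24 h, 8 were higher and 6 lower at 24 h. Zfp36, tristetraprolin, which promotes decay of such mRNAs, averaged 2.86 CPM at 24 h and 0.897 CPM at 0 h (1.67 ± 0.347, adjusted p = 0.000501, edgeR), and its relative Zfp36l1 122.7 CPM at 24 h and 58.6 CPM at 0 h (adjusted p = 1.61e-06). The exonuclease Xrn1 was higher by 0.95 and the RNA-binding Tia1 by 0.90 on the log2 scale. Zfp36l2 fell at 2 h (-0.98) as Junb did, at 52.1 CPM, against 102 CPM at 0 h. These 3 ZFP36 genes are also members of the list of other immediate-early genes.

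Of 12 heat shock genes, listed for handling stress, 9 were tested, and most of these were lower after MYC was turned off. Hspa1a, Hspa1b and Hspb1 did not pass the low-count filter, so the list gives no reading of handling through them. Of the 9, 1 was called higher and 7 lower at 24 h (median -1.77, beside 30.7% of all tested genes higher and 28.1% lower). At 2 h 1 was higher and 5 lower, beside 6.6% and 8.59% of all tested genes. Without replicate 3 of 24 h, 2 were higher and 7 lower at that time. The mitochondrial chaperonins Hspd1 (108 CPM at 24 h and 1656 CPM at 0 h, -3.94 ± 0.0982, adjusted p = 6.53e-14, edgeR) and Hspe1 (-2.46) and the cytosolic Hsph1 (-2.30) and Hsp90ab1 (-1.80) fell, and Dnajb1 was the 1 called higher, at 2 h (0.41) and at 24 h (0.67). Their part in the values of the members was not tested.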
